A study of Homo sapiens with 4 samples.

Results

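The EGF receptor family and its ligands were read in 4 RNA-seq libraries of a cell line labelled HepG2, an established human hepatoma line. The 10 members were chosen by name, with earlier results of these data known. They were the receptors EGFR, ERBB2 and ERBB3, the ligands AREG, EREG, HBEGF, TGFA, BTC and NRG1, and the receptor inhibitor ERRFI1. All 10 had a row among the 27452 genes of the count table. Lines carrying a control hairpin (Ctrl shRNA) or a hairpin against STAT3 (STAT3 shRNA) were compared, with 2 libraries each. The comparison asked how lowering STAT3 changed the expression of other genes. All libraries came from cells grown in DMEM with fetal bovine serum. The labels do not give the hairpin sequences, whether a line was a clone or a pool, or whether the libraries of a group were separate cultures, so p-values cover only library-to-library spread, possibly technical. In bulk RNA, fewer cells of a kind and less RNA per cell cannot be told apart.

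EGF receptors are tyrosine kinases that pair when a ligand binds and then signal through RAS and ERK, PI3K and AKT, and STAT proteins. AREG and TGFA bind EGFR, HBEGF, EREG and BTC bind EGFR and ERBB4, and NRG1 binds ERBB3 and ERBB4, while ERBB2 has no known soluble ligand and serves as a partner. In liver the family is known for its part in regeneration after tissue loss, and STAT3 is one of the factors that its receptors can activate.

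The targeted gene matched its labels. STAT3 stood at 245.03 and 244.3 CPM (read counts scaled to library size, with TMM factors) under Ctrl shRNA and at 34.7 and 36.1 CPM under STAT3 shRNA, a log2 fold change of -2.79 (adjusted p = 3.28e-07, edgeR). Library totals ran from 17694642 to 25862027 reads, so 3 reads corresponded to 0.116 to 0.170 unscaled CPM. Floors and counting intervals here cover counting error only. Hepatocyte markers went against the liver label. Of 10 listed markers 4 were analysed, and ALB had 0, 0, 0 and 3 reads and APOA1 0, 0, 1 and 2 reads. TF fell from 2.01 and 2.14 CPM with Ctrl shRNA to 0.900 and 0.435 CPM with STAT3 shRNA. HNF4A rose from 1.27 and 1.78 CPM to 7.20 and 4.95 CPM. The 4 summed to 3.29 and 3.92 CPM with Ctrl shRNA and 8.14 and 5.65 CPM with STAT3 shRNA, the latter mostly HNF4A. The cholangiocyte list (5 of 5 analysed, none at 0) summed to 1165 and 1288 CPM with Ctrl shRNA and 900.4 and 871.3 CPM with STAT3 shRNA, most of it KRT7, which fell, while KRT19 and EPCAM rose. The fibroblast list (4 of 5 analysed, most of it COL1A1, which fell) summed to 42.4 and 49.4 against 21.1 and 20.2 CPM. The endothelial list (3 of 5 analysed, TEK at 0 in both Ctrl shRNA libraries) summed to 1.20 to 1.75 CPM and the leukocyte list (2 of 5 analysed) to 0.272 to 0.636 CPM. The libraries are therefore called by their labels below. The part of these markers in the results was not tested.

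Of the 10 members, 9 had enough reads to be tested, and 5 were called higher and 1 lower with STAT3 shRNA at an adjusted p under 0.05 (two-sided quasi-likelihood test of edgeR, p-values adjusted by Benjamini-Hochberg across every gene tested). Those called higher were EGFR, ERBB3, TGFA, NRG1 and ERRFI1, and the one called lower was EREG. EREG and AREG reached the low-count filter (10 reads at the median depth, in 2 libraries) only through the Ctrl shRNA libraries, where they are higher, so a lower value was favoured by the filter. The counts and the median over the 9 describe those that passed it and support nothing on their direction. Among all 15199 genes tested 35.5% were called, 16.8% higher and 18.7% lower. The median log2 fold change was 0.41 over the 9 members and 0.022 over all tested genes. In 8 of the 9 the CPM ranges were separate between groups, 6 higher and 2 lower with STAT3 shRNA, and the same held for 70.8% of all tested genes (36.5% higher and 34.3% lower).

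**Figure D1:**
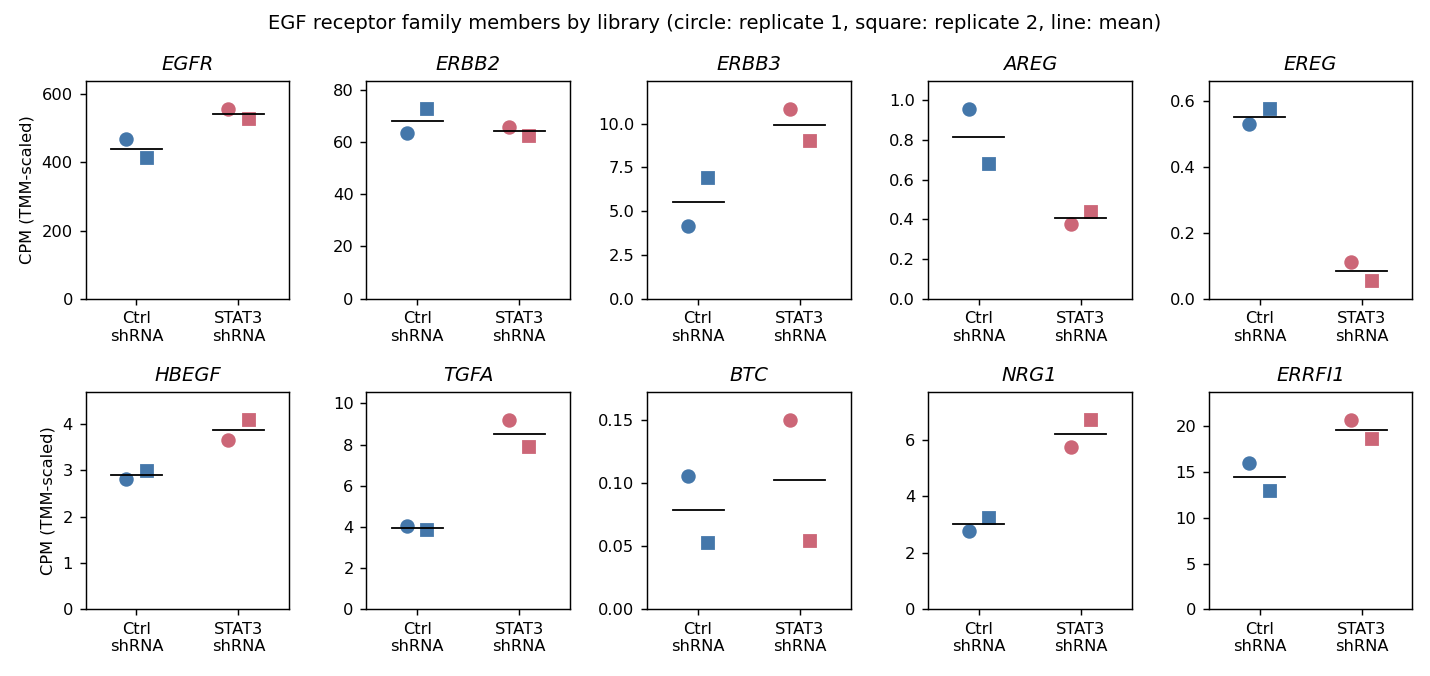
CPM (vertical axis, from 0, a separate scale in each panel) of the 10 members in the 2 Ctrl shRNA libraries (blue) and the 2 STAT3 shRNA libraries (red). Circles are replicate 1, squares replicate 2 and lines group means. TGFA, NRG1 and ERBB3 lie higher with STAT3 shRNA and EREG lower, while the ERBB2 and BTC values of the groups overlap.

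The promoters are shown for the receptor EGFR and its inhibitor ERRFI1, which were called higher, and for the ligands EREG, called lower from few reads, and AREG, which lie near each other on chromosome 4, so that their make-up can be set beside these values. The bases upstream of the RefSeq start are printed 5′ to 3′ on the gene's strand (RefSeq, GRCh38.p14), with capitals marking matches to the motifs searched.
EGFR, chr7:55018767-55019016, plus strand: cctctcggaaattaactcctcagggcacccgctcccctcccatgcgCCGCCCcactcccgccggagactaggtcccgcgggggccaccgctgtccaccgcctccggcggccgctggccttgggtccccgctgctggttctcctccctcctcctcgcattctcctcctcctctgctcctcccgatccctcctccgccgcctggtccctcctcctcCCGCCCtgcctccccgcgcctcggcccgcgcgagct
ERRFI1, chr1:8026310-8026559, minus strand: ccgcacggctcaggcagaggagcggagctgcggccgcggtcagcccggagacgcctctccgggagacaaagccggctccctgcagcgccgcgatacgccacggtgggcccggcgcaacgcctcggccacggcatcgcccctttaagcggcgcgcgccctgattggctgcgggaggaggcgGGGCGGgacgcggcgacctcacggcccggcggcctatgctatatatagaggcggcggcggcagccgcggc
EREG, chr4:74364895-74365142, plus strand: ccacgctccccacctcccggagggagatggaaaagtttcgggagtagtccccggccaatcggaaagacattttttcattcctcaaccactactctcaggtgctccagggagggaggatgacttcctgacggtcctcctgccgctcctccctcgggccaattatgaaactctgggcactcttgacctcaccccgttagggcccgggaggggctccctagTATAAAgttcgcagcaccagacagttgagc
AREG, chr4:74444886-74445133, plus strand: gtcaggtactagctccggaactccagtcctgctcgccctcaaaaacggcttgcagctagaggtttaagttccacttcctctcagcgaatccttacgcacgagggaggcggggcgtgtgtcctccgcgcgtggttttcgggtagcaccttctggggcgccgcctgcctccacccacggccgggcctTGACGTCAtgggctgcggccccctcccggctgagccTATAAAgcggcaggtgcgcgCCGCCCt

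Of the 10 members 8 had an entry in the promoter table, and ERBB3 and NRG1 did not. Motifs were sought on both strands of the 250 bases upstream of the start: the STAT motif TTCNNNGAA, the TATA box TATAAA, the GC box GGGCGG, the cyclic AMP element TGACGTCA and the AP-1 motif TGANTCA. The STAT motif matched none of the 8 windows and 6.78% of all 27305 promoters, which says only that these letters are not in these windows. The TATA box matched EREG and AREG (11.1% of all promoters), and the cyclic AMP element matched AREG (1.77%). GC boxes matched EGFR (2), ERRFI1 (1), AREG (1), TGFA (3) and HBEGF (5), partly overlapping one another in HBEGF, and 42.3% of all promoters. The AP-1 motif matched ERBB2 (6.60% of all promoters). The upstream bases were 73.6% GC in EGFR and 75.2% in ERRFI1, 58.0% in EREG, 65.2% in AREG, 65.6% in ERBB2 and 76.4% in HBEGF, with a median of 58.0% over all promoters.

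EGFR (ENSG00000146648.18; GRCh38 chromosome 7, 55019021 to 55211628, plus strand in GENCODE 29, as for all positions of genes below), the receptor for EGF, TGFA and AREG, was the most abundant member. It was at 468.2 and 412.2 CPM with Ctrl shRNA and at 555 and 528 CPM with STAT3 shRNA. Both STAT3 shRNA libraries were above both Ctrl shRNA libraries, by a modest margin. EGFR rose 1.23-fold, with a log2 fold change of 0.30 ± 0.09 (SE; 95% interval 0.10 to 0.50) and an adjusted p of 0.0294 in the edgeR test. This call was lost without either STAT3 shRNA library (adjusted p = 0.259 without replicate 1 and 0.145 without replicate 2) and on the deposited FPKM, where limma gave an adjusted p of 0.0524 or 0.0538 (range over its alternatives 0.000692 to 0.259). The antisense gene EGFR-AS1 held 0.073% as many reads as EGFR.

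ERBB3 (ENSG00000065361.15; chromosome 12, 56076799 to 56103505, plus strand), the neuregulin receptor with an impaired kinase, was at 4.14 and 6.90 CPM with Ctrl shRNA and at 10.8 and 9.02 CPM with STAT3 shRNA. The groups did not overlap, and the Ctrl shRNA libraries differed more from each other than the STAT3 shRNA libraries did. ERBB3 had a log2 fold change of 0.85 ± 0.24 (SE; 95% interval 0.29 to 1.40; adjusted p = 0.0261, edgeR). Without Ctrl shRNA replicate 1 it was 0.50 and without Ctrl shRNA replicate 2 it was 1.26, and the call was lost without Ctrl shRNA replicate 1 (adjusted p = 0.0540), without STAT3 shRNA replicate 1 (0.139) and on FPKM (0.149 and 0.150), with a range over its alternatives of 0.000138 to 0.150. An overlapping locus on the same strand, AC034102.2, had 0 reads in both Ctrl shRNA libraries and 423 and 290 reads with STAT3 shRNA. It spans bases 56101331 to 56109289 in 6 annotated exons, of which 1, of 31 bases, lies within the span of ERBB3 and 5 lie within that of the neighbour PA2G4. With all its reads added to ERBB3, an alternative chosen after the data were seen, the log2 fold change was 2.22. As most of its exons lie outside ERBB3, that value may count many reads that are not of ERBB3. Whether counting split any reads between them was not tested, so the size of the ERBB3 rise is uncertain to that extent.

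ERBB2 (ENSG00000141736.13; chromosome 17, 39687914 to 39730426, plus strand), the preferred partner of the other receptors, was at 63.6 and 72.4 CPM with Ctrl shRNA and at 65.8 and 62.2 CPM with STAT3 shRNA. The groups overlapped. Its log2 fold change of -0.09 ± 0.10 (SE; 95% interval -0.30 to 0.13) did not pass (adjusted p = 0.522, edgeR), and the interval spans falls and rises. Without Ctrl shRNA replicate 1 it passed as lower (-0.21, adjusted p = 0.0443; range over its alternatives 0.0443 to 0.954), and it was above 0 without Ctrl shRNA replicate 2 (0.0074), with an offset for GC content (0.083) and on FPKM (0.20 and 0.21). MIEN1, a gene on the opposite strand that overlaps it, held 46.7% as many reads as ERBB2 and fell by 0.59 on the log2 scale (adjusted p = 0.00393, edgeR). Whether counting used strand is not given in the sources used here, so reads of ERBB2 and MIEN1 may not be fully separated.

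TGFA (ENSG00000163235.16; chromosome 2, 70447280 to 70554193, minus strand), transforming growth factor alpha, was at 4.03 and 3.87 CPM with Ctrl shRNA and at 9.19 and 7.88 CPM with STAT3 shRNA. Both STAT3 shRNA libraries were well above the Ctrl shRNA pair, which lay close together. TGFA rose 2.16-fold, a log2 fold change of 1.11 ± 0.19 (SE; 95% interval 0.68 to 1.55) with an adjusted p of 0.00267 (edgeR). TGFA was called in all 15 alternatives, with log2 fold changes of 0.74 to 1.22 and adjusted p-values of 9.3e-06 to 0.0482. TGFA was also the only member called on FPKM. The alternatives counted here and below include the fit with AC034102.2 reads added to ERBB3. It left the reads of every other gene unchanged, so for those genes it nearly repeats the main fit.

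NRG1 (ENSG00000157168.19; chromosome 8, 31639386 to 32767959, plus strand), neuregulin 1, was at 2.76 and 3.24 CPM with Ctrl shRNA and at 5.74 and 6.69 CPM with STAT3 shRNA. The groups did not overlap. NRG1 rose 2.06-fold, a log2 fold change of 1.04 ± 0.23 (SE; 95% interval 0.53 to 1.56) with an adjusted p of 0.00759 (edgeR). It passed in 12 of 15 alternatives and was lost without STAT3 shRNA replicate 2 (adjusted p = 0.0781) and on FPKM (0.0646 and 0.0643 by limma), a range over its alternatives of 0.000362 to 0.0781. The receptor ERBB3 and its ligand NRG1 were thus both called higher on counts, and neither was on FPKM.

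HBEGF (ENSG00000113070.8; chromosome 5, 140332843 to 140346631, minus strand), heparin-binding EGF, was at 2.81 and 2.98 CPM with Ctrl shRNA and at 3.64 and 4.08 CPM with STAT3 shRNA. The groups did not overlap, but the log2 fold change of 0.41 ± 0.25 (SE; 95% interval -0.15 to 0.97) did not pass (adjusted p = 0.227, edgeR), nor did it under any of its 14 alternatives.

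AREG, EREG and BTC lie close together on chromosome 4 and were the least abundant members. EREG (ENSG00000124882.4; 74365143 to 74388751, plus strand), epiregulin, had 10 and 11 reads with Ctrl shRNA and 3 and 1 with STAT3 shRNA, or 0.530 and 0.575 against 0.113 and 0.0544 CPM. Both STAT3 shRNA libraries were at or under the level of 3 reads. EREG passed the low-count filter only through its high group, Ctrl shRNA, and had a log2 fold change of -2.57 ± 0.78 (SE; 95% interval -4.34 to -0.81; adjusted p = 0.0312, edgeR). Over the summed reads of 21 and 4 the ratio of Ctrl shRNA to STAT3 shRNA was 6.23, with a 95% counting interval (exact binomial) of 2.10 to 25.0. The call was lost without Ctrl shRNA replicate 1 (adjusted p = 0.0989), without either STAT3 shRNA library (0.177 and 0.257), without the low-count filter (0.0583), with DESeq2 (0.134) and on FPKM (0.372 and 0.150, log2 fold changes of -0.14 and -0.91), and without Ctrl shRNA replicate 2 EREG had too few reads to be tested (range over its alternatives 0.0194 to 0.372).

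AREG (ENSG00000109321.11; 74445134 to 74455009, plus strand), amphiregulin, had 18 and 13 reads with Ctrl shRNA and 10 and 8 with STAT3 shRNA, or 0.954 and 0.680 against 0.375 and 0.435 CPM. The values were lower with STAT3 shRNA in both libraries, but the log2 fold change of -1.01 ± 0.54 (SE; 95% interval -2.24 to 0.21) did not pass (adjusted p = 0.177, edgeR). BTC (ENSG00000174808.12; 74744759 to 74794686, minus strand), betacellulin, had 2 and 1 reads with Ctrl shRNA and 4 and 1 with STAT3 shRNA, and was not tested. Its ratio of STAT3 shRNA to Ctrl shRNA was 1.41 with a 95% counting interval of 0.273 to 9.05, so no difference was detectable at this depth.

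ERRFI1 (ENSG00000116285.13; chromosome 1, 8004404 to 8026308, minus strand), also called MIG6, binds the EGFR kinase and blocks it, and is itself induced by growth factor signals. It was at 16.0 and 12.9 CPM with Ctrl shRNA and at 20.6 and 18.6 CPM with STAT3 shRNA. The groups did not overlap. ERRFI1 rose 1.36-fold, a log2 fold change of 0.44 ± 0.14 (SE; 95% interval 0.12 to 0.77; adjusted p = 0.0406, edgeR). It passed in 7 of 15 alternatives, and was lost with an offset for GC content (adjusted p = 0.0908), without Ctrl shRNA replicate 2 (0.112), without STAT3 shRNA replicate 1 (0.264) or 2 (0.0990), with DESeq2 (0.0955) and on FPKM (0.107 and 0.105), a range over its alternatives of 0.00572 to 0.264.

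**Figure D2:**
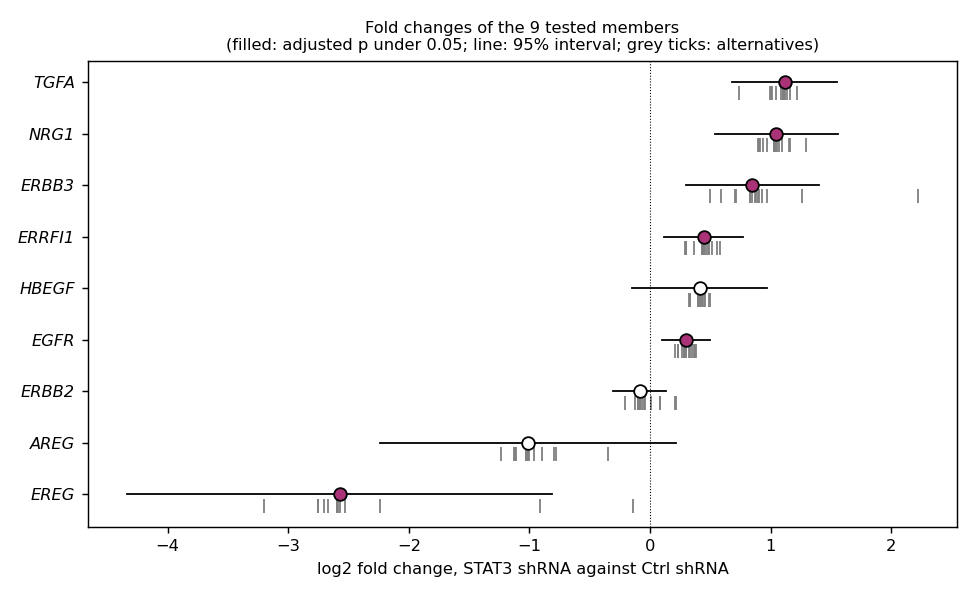
Log2 fold changes of STAT3 shRNA against Ctrl shRNA (horizontal axis) for the 9 tested members, with 95% intervals as lines. Filled points had an adjusted p under 0.05 in the edgeR test, and grey ticks below each point are the alternatives. The ticks of TGFA, NRG1, ERBB3, ERRFI1, HBEGF and EGFR all lie above 0 and those of AREG and EREG below. ERBB2 straddles 0, and EREG has the widest spread of alternatives. The ERBB3 tick at 2.22 has all AC034102.2 reads added, and the other ERBB3 ticks run from 0.50 to 1.26.

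Levels of different members were compared per length, on the deposited FPKM. EGFR was at 50.7 and 45.1 FPKM with Ctrl shRNA and 62.7 and 61.9 with STAT3 shRNA, and ERBB2 followed at 16.0 to 21.3 FPKM over the 4 libraries. ERRFI1 was at 4.47 to 7.69, ERBB3 at 3.25 to 7.18, NRG1 at 1.38 to 5.50, TGFA at 1.30 to 3.34 and HBEGF at 1.31 to 2.10 FPKM. AREG was at 0.39 to 0.95, EREG at 0.010 to 0.13 and BTC at 0.020 to 0.060 FPKM. In this order the ranges of EGFR, ERBB2 and ERRFI1 were apart, those from ERRFI1 down to HBEGF each overlapped the next, HBEGF, AREG and EREG were apart, and EREG and BTC overlapped. On CPM per kilobase of the longest GENCODE transcript ERRFI1 and ERBB3 were also apart. Means over the 4 libraries were then 1.45 for TGFA, 1.42 for HBEGF, 1.30 for ERBB3 and 0.777 for NRG1, another order than on FPKM. EGFR held 66.4% to 71.7% of the summed FPKM of the receptors (ERBB4 included) in the 4 libraries.

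The 6 member ligands summed to 5.38 and 5.42 FPKM with Ctrl shRNA and to 8.66 and 10.9 FPKM with STAT3 shRNA. AREG made up 17.7% and 12.7% of that sum with Ctrl shRNA and 4.50% and 4.23% with STAT3 shRNA, TGFA 29.4% and 24.0% against 38.6% and 25.6%, and NRG1 25.7% and 35.2% against 35.6% and 50.6%. HBEGF made up 24.3% and 25.3% against 20.3% and 19.3%. With CPM per kilobase of the longest GENCODE transcript in place of FPKM, the 6 summed to 3.50 and 3.38 with Ctrl shRNA and to 5.01 and 5.05 with STAT3 shRNA. On that scale HBEGF made up 33.7% and 36.9% against 30.5% and 33.9%, and AREG 22.0% and 16.2% against 6.04% and 6.95%. TGFA made up 26.7% and 26.5% against 42.6% and 36.2%, and NRG1 13.3% and 16.1% against 19.3% and 22.3%. On both scales the AREG share was lower and the NRG1 share higher in both STAT3 shRNA libraries. On FPKM the NRG1 shares of Ctrl shRNA replicate 2 and STAT3 shRNA replicate 1 differed by little, and the TGFA shares overlapped between groups. The AREG shares rest on 18 and 13 reads against 10 and 8, and the fall of AREG itself did not pass (adjusted p = 0.177, edgeR). A share also falls when the sum rises, as it did here.

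**Figure D3:**
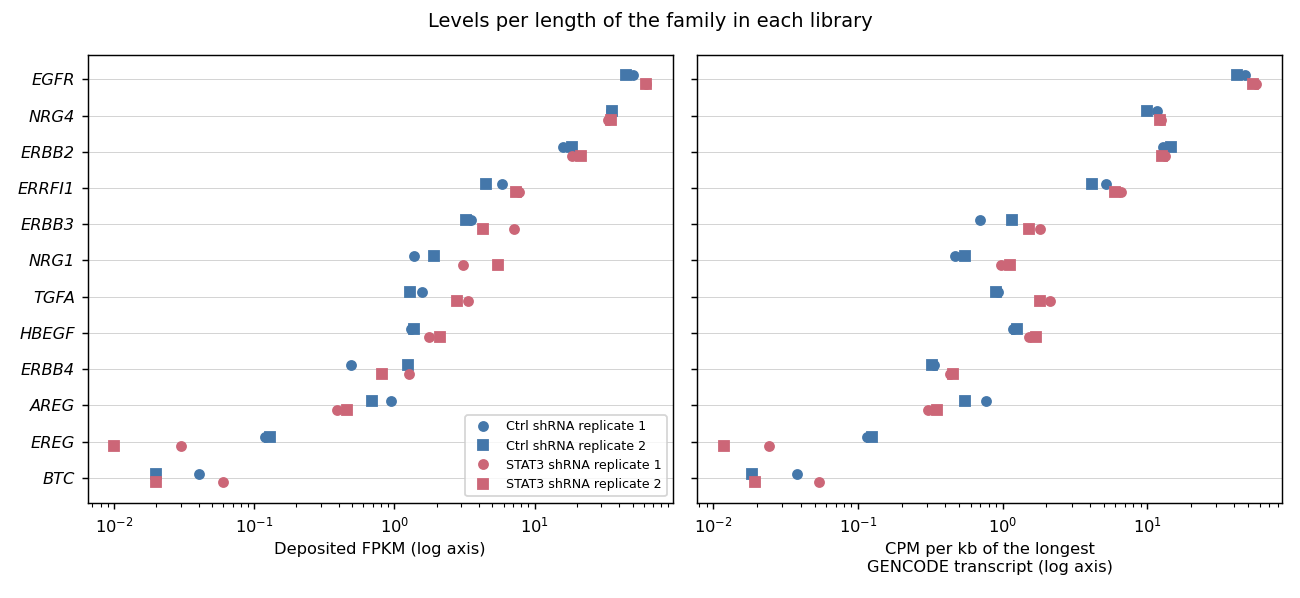
Levels per length of the members, NRG4 and ERBB4 in each library, as deposited FPKM (left, log axis) and as CPM per kilobase of the longest GENCODE 29 transcript (right, log axis). Blue is Ctrl shRNA and red STAT3 shRNA. EGFR is highest and EREG and BTC are lowest on both scales.

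Of the 6 other genes of the family, NRG2 and NRG3 were not analysed here. NRG4, a neuregulin that binds ERBB4, was at 33.2 to 35.4 FPKM, above each of the 6 member ligands, and its log2 fold change of 0.19 did not pass (adjusted p = 0.191, edgeR; range over its alternatives 0.0213 to 0.927). It passed without Ctrl shRNA replicate 1 (0.27, adjusted p = 0.0213) and was below 0 with the GC offset and on FPKM. ERBB4, the neuregulin receptor, was at 0.49 to 1.27 FPKM and did not pass either (0.43, adjusted p = 0.141, edgeR). EGF itself had 1 and 0 reads with Ctrl shRNA and 3 and 3 with STAT3 shRNA, and epigen (EPGN) 0, 2, 0 and 0 reads. Neither EGF nor EPGN was tested.

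Genes that act around the receptors were read from lists of EGF receptor biology. Members of a pathway list are not all specific to these receptors. Of 5 genes of ligand shedding 2 rose and 0 fell, against 35.5% of all tested genes called (list median log2 fold change -0.04), and 1 rose without either STAT3 shRNA library. These were both metalloproteases that cut the ligand precursors from the membrane. ADAM10 went from 64.4 and 53.4 CPM to 97.2 and 96.6 CPM (log2 fold change 0.72, adjusted p = 0.0011, edgeR). ADAM17, the main sheddase of TGFA, AREG and HBEGF, went from 30.4 and 23.8 to 39.7 and 39.2 CPM (0.54, adjusted p = 0.0102, edgeR). Both genes had no overlap between groups, as had 70.8% of all tested genes (36.5% higher with STAT3 shRNA). ADAM17 was at 0.34 with an offset for GC content and was lost without STAT3 shRNA replicate 1 or 2 and on FPKM (range over its alternatives 6.79e-05 to 0.255).

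Of 23 adaptors and kinases 4 rose and 4 fell, 34.8% of the list against 35.5% of all tested genes (list median -0.08). With either STAT3 shRNA library left out, 1 rose and 1 fell, and without Ctrl shRNA replicate 1, 3 rose and 8 fell. SHC1, an adaptor that docks on the phosphorylated receptors, went from 183.7 and 198.8 to 115.7 and 113.2 CPM (log2 fold change -0.74, adjusted p = 0.000338, edgeR). It was at -0.31 on FPKM and lost there (adjusted p = 0.0556 and 0.0577 by limma; range over its alternatives 3.97e-13 to 0.0577). AKT2, a kinase downstream of PI3K, fell by 0.43 on the log2 scale in counts (adjusted p = 0.00443, edgeR), but was at -0.25 with the GC offset and at 0.010 on FPKM and lost its call without either STAT3 shRNA library (range over its alternatives 7.62e-05 to 0.954). SOS2, an exchange factor that loads RAS with GTP, rose by 0.69 (adjusted p = 0.00202) and NRAS by 0.33 (adjusted p = 0.0139, edgeR). NRAS was lost with the GC offset (0.12) and without either STAT3 shRNA library (range over its alternatives 0.00379 to 0.239).

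Of 17 tested genes of receptor inhibition and degradation 6 rose and 2 fell (list median 0.21). These were 47.1% of the list, against 35.5% of all tested genes called. Without STAT3 shRNA replicate 1, 3 rose and 2 fell, and without STAT3 shRNA replicate 2, 1 rose and 1 fell. SH3KBP1 (CIN85), an adaptor in the internalization of EGFR, went from 55.9 and 51.5 to 98.4 and 95.2 CPM (log2 fold change 0.85, adjusted p = 0.000228, edgeR). USP8, which removes ubiquitin from endocytosed receptors, rose by 0.45 (adjusted p = 0.00387, edgeR), or by 0.24 with the GC offset, a call lost without either STAT3 shRNA library (range over its alternatives 0.000151 to 0.0681). STUB1, a ubiquitin ligase of chaperone clients, fell by 0.56 (adjusted p = 0.00436), and by 0.22 with the GC offset (adjusted p = 0.0414; range over its alternatives 1.73e-07 to 0.0459), and EPN1, an endocytic adaptor, by 0.49 (adjusted p = 0.00718, edgeR), the latter lost without STAT3 shRNA replicate 2 and on FPKM (range over its alternatives 4.47e-06 to 0.0916). LRIG1, a membrane protein that promotes the breakdown of these receptors, was singled out after its values were seen. It went from 1.70 and 2.20 to 4.20 and 5.33 CPM (log2 fold change 1.28, adjusted p = 0.00755, edgeR), a call lost without STAT3 shRNA replicate 2 and on FPKM (0.42 and 0.84; range over its alternatives 0.00011 to 0.177).

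Of 15 tested genes known to be induced by ERK signalling 2 rose and 6 fell, with a list median of 0.091. These were 53.3% of the list, against 35.5% of all tested genes called (16.8% higher and 18.7% lower). The list median and the balance of its calls thus had opposite signs. ETV5, an ETS transcription factor, went from 10.4 and 9.78 to 3.56 and 3.32 CPM (log2 fold change -1.55, adjusted p = 0.00044, edgeR). SPRY2, a Sprouty feedback inhibitor of receptor tyrosine kinase signals, went from 18.6 and 20.9 to 8.93 and 9.95 CPM (-1.07, adjusted p = 0.000716, edgeR). FOS and EGR1, immediate-early transcription factors, went the other way, FOS from 169.7 and 186.1 to 330.3 and 336.9 CPM and EGR1 from 67.7 and 71.9 to 103.2 and 126.8 CPM (adjusted p = 0.00013 and 0.00148, edgeR). ETV5, SPRY2, FOS and EGR1 were called in all 15 alternatives. The other four that fell, named after their values were seen, were ETV4 (-1.19), SPRY1 (-1.66), SPRED2 (-0.46) and IER3 (-0.41). SPRY1 reached the level of the low-count filter in both Ctrl shRNA libraries and in 1 of the 2 STAT3 shRNA libraries. Of these ETV4 was called in all 15 alternatives, while SPRY1, SPRED2 and IER3 were lost without STAT3 shRNA replicate 1, STAT3 shRNA replicate 2 or Ctrl shRNA replicate 2, and in some other alternatives. In each of these 3 settings 3 genes of the list fell, and 4 fell with upper-quartile scaling, with DESeq2 and on FPKM. Without Ctrl shRNA replicate 1, 4 rose.

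**Figure D4:**
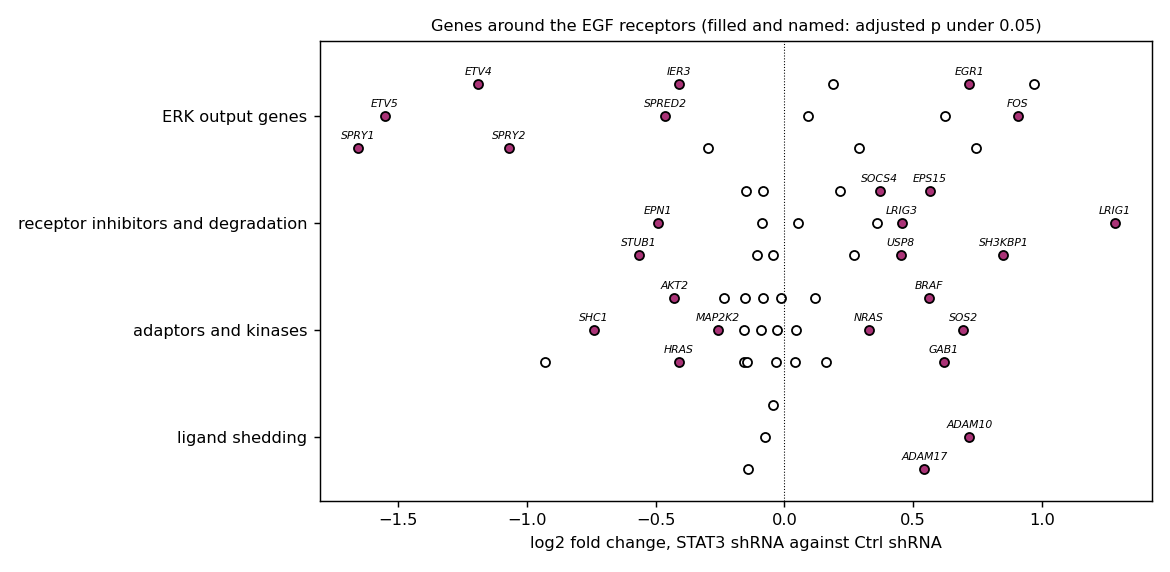
Log2 fold changes of STAT3 shRNA against Ctrl shRNA (horizontal axis) of the tested genes of 4 lists (vertical axis, spread for legibility). Filled and named points had an adjusted p under 0.05 in the edgeR test. The ERK output genes split, with ETV5, ETV4, SPRY1 and SPRY2 low and FOS and EGR1 high.

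The genes most alike in pattern were sought for the member receptor and the member ligand with the highest mean FPKM (on CPM per kilobase that ligand was TGFA), by the distance between centred log2 CPM over the 4 libraries among 9216 genes with a mean of at least 10 CPM over the 4 libraries. For EGFR these were RAD17, CTCF and USP34 (distances 0.0125, 0.0191 and 0.0213), and for NRG1 they were HKDC1, PLLP and ZNF185 (0.0945, 0.0984 and 0.101). The points share 4 libraries in 2 groups, so a small distance says mainly that the fold changes were alike.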

How the data were processed

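RNA-seq of 4 libraries (2 Ctrl shRNA, 2 STAT3 shRNA, groups from the titles) was deposited as whole-number read counts per gene without normalization and as FPKM per gene, per the file headers and names. The aligner, the counter, the build and the kit are each not stated in those sources. Columns were matched by name, and "Si" in 2 of them was read as STAT3 shRNA. The 2 tables were joined by gene ID. Positions, transcript lengths and GC content came from GENCODE 29 (25996 of 26420 Ensembl IDs matched without version). No member had a near-identical copy among its transcripts (blastn 2.17.0, at least 95% identity over 50% of the length).

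The main test was that of edgeR 4.0.16, run under R 4.3.3 on the counts (TMM, filterByExpr with default settings, glmQLFit and glmQLFTest, group as the only term, threshold 0.05). The procedure was also run on simulated counts with a common dispersion and fewer changed genes than were called here. That setting is simpler than these data, so it does not show how the test behaves on them. SEs come from the quasi-likelihood F. Alternatives used RLE and upper-quartile scaling, no filter or 5 CPM in 2 libraries, a replicate block, a lowess GC offset, each library left out (the lone library of a group is then assumed to vary like the other group), DESeq2 1.42.0, and limma 3.58.1 on log2(FPKM + 1) and log2(FPKM + 0.1) of the authors' deposited FPKM. Fold changes on that scale understate low genes. A further alternative, chosen after the data were seen, added the reads of AC034102.2 to ERBB3 and changed the reads of no other gene. Members and lists were chosen with earlier results of these data known. Named genes were STAT3, the members, the other family genes, from each list the 2 smallest p-values among genes called in each direction, and the genes most alike in pattern. Genes named after their values were seen are marked so. Counts of the 2 libraries of a group differed beyond sampling noise (chi-square per degree of freedom 13.9 for Ctrl shRNA and 4.20 for STAT3 shRNA).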

Additional observations from a re-analysis of the deposited data

How the results depend on the processing

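Numbers of calls depended on the libraries, the unit and the threshold, and their balance on the scaling: upper-quartile scaling called 2949 genes higher and 2412 lower (55.0% higher, against 47.3%). With 1 library left out, the number of genes called ran from 2527 to 7291 (5396 with all), higher ones from 1128 to 3367 (2552) and lower ones from 1399 to 3924 (2844), and members called ran from 2 to 5 (6), higher ones from 2 to 4 (5) and lower ones from 0 to 1 (1). The lowest numbers of genes were those without STAT3 shRNA replicate 1, and 2567 genes were called without STAT3 shRNA replicate 2. On FPKM, 2535 genes were called with a pseudocount of 1 (1349 higher, 1186 lower) and 2494 with 0.1 (1315 higher, 1179 lower), and 1 member, which was higher, with 0 lower. At a threshold of 0.01, 2897 genes were called (1265 higher, 1632 lower), and 2 members, both higher, with 0 lower. The number of lower members was also 0 with no low-count filter, with a filter of 5 CPM (under which EREG was not tested) and with DESeq2. Log2 fold changes that turned sign were those of AKT2 on FPKM (0.010 with either pseudocount), of ERBB2 with the GC offset (0.083, also with the block), with 1 library left out (from -0.21 without Ctrl shRNA replicate 1 to 0.0074 without Ctrl shRNA replicate 2) and on FPKM (0.20 with a pseudocount of 1 and 0.21 with 0.1), and of NRG4 with the GC offset (-0.011, and -0.012 with the block) and on FPKM (-0.056 and -0.057). Of 131 alternative values for the members' fold changes 99 kept their direction and their side of the threshold, 26 lost the call, 1 gained it and 5, all of ERBB2, changed sign without a call. The 26 all belong to the 6 members called in the main fit, as the other 3 tested members had no call to lose. The 131 values include the fit with reads added to ERBB3, which nearly repeats the main fit for the other members. Log2 fold changes of all tested genes fell with GC content (Spearman rho -0.34 across genes), and the difference of Ctrl shRNA replicate 2 from replicate 1 rose with it (rho 0.45). The cause of these changes was not tested.

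The replicate block called 5447 genes and 6 members. Libraries of the same number did not deviate together across genes (correlation -0.024). Each group gives only the difference between its replicates, so this value cannot decide whether libraries of the same number were prepared together. Depth limits BTC, EREG and AREG, with 8, 25 and 49 reads in all 4 libraries.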

Other observations

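The deposited FPKM and counts of some family genes moved apart between libraries. The length implied by CPM per FPKM (CPM here over the reads of tested genes, without TMM factors) was steady for EGFR and HBEGF. It was 8694 to 9140 bases over the 4 libraries for EGFR and 2021 to 2134 bases for HBEGF. For ERBB3 this length was 1160, 2019, 1553 and 2205 bases and for NRG1 1956, 1614, 1923 and 1265 bases, in the order Ctrl shRNA replicates 1 and 2, then STAT3 shRNA replicates 1 and 2. ERBB4, with 77 and 75 reads under Ctrl shRNA, was listed at 0.49 and 1.25 FPKM there. NRG4 had an implied length of 914.6 to 1320 bases against 3406 for its longest GENCODE transcript, and on CPM per kilobase of that transcript it was at 10.0 to 12.5, next to ERBB2 at 12.6 to 14.7.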
